A study of Homo sapiens with 5 samples.

Results

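Binding of Fra-1, MYC and E2F1 was examined at 8 genes that make, sense and remove extracellular adenosine. They were taken by name out of 20098 protein-coding genes on chromosomes 1 to 22 and X, with no threshold on binding. The list held 4 adenosine receptors (ADORA1, ADORA2A, ADORA2B and ADORA3), 2 ectonucleotidases (NT5E and ENTPD1) and 2 enzymes that consume adenosine (ADA and ADK). ADA and ADK are thus neither receptors nor ectonucleotidases, and are kept apart from them here. ADORA2B was set against its relatives, because the study treats the A2b receptor as a target that can be reached by drugs. The study had picked ADORA2B by Fra-1-dependent expression in this cell line, so that its Fra-1 peaks are not independent of that choice.

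The study asked which genes of a Fra-1-dependent signature contribute to growth and spread of breast cancer cells and which transcription factors (TFs) bind them. ChIP-Seq was done in LM2 cells, a lung-metastatic derivative of the human MDA-MB-231 breast cancer line, with antibodies against Fra-1 (FOSL1), MYC and E2F1. Each factor had 1 library, and 1 input DNA library from the same cells served as the background of all of them. A library against EZH2 was not analysed here, nor was the p53 ChIP-Seq that the paper also reports. LM2 cells are a single selected line, and with 1 library per factor no difference between factors or genes could be tested against the spread between cultures. All values below therefore describe these libraries.

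Extracellular ATP and ADP are cut to AMP by CD39, the product of ENTPD1, and AMP is cut to adenosine by CD73, the product of NT5E. Adenosine then acts on 4 G-protein-coupled receptors, of which the A1 and A3 receptors lower cyclic AMP and the A2a and A2b receptors raise it. Adenosine deaminase (ADA) turns adenosine into inosine, and adenosine kinase (ADK) returns it to AMP within the cell. In tumors, adenosine is known for dampening immune cells, and the A2b receptor is known for its low affinity.

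The E2F1 list was the longest, with 36933 peaks, followed by Fra-1 with 17320 and MYC with 4867. Tags left by the duplicate filter of MACS2 ranged from 10758036 in the input to 23853621 in the MYC library. A peak's fold enrichment is the pileup of fragments at its summit over the local background, each with 1 added. Its median was 8.88 in the E2F1 list, 8.24 in the Fra-1 list and 6.67 in the MYC list. Because depth and list length differ, a fold enrichment of one factor can be set against that of another only roughly, and the percentile of a peak within its own list is given where it helps. A gene without a called peak may still have had binding below the threshold. Intervals in the text are exact 95% Poisson intervals on the deposited pileup. They cover the counting error of the pileup only and leave out that of the input background. They are approximate, because MACS2 scaled the pileups between library and input.

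Windows of 3 kinds were read for each gene. A promoter window reached from 2 kb upstream to 2.5 kb downstream of any annotated transcription start site (TSS) of the gene. The gene body was the rest of the annotated gene, and the flanks were the 50 kb beyond either end. Distances are from the canonical TSS, with negative values upstream.

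The sequences below, read from GRCh37, carry the sites on which the results at ADORA2B turn, and each is centred on a peak summit. Capitals mark the AP-1 motif, TGACTCA or TGAGTCA, to which Fra-1 binds as a dimer with JUN proteins. The site at 9355 bp, where all 3 factors overlapped, held no AP-1 motif.
ADORA2B Fra-1 and E2F1 site at −24240 bp, chr17:15824154-15824254, plus strand: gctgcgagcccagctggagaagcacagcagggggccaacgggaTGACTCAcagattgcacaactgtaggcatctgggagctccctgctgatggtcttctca
ADORA2B Fra-1 and E2F1 site at −3193 bp, chr17:15845201-15845301, plus strand: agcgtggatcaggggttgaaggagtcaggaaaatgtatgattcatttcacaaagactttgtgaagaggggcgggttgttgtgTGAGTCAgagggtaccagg
ADORA2B MYC summit in the first coding exon at 169 bp, chr17:15848563-15848663, plus strand: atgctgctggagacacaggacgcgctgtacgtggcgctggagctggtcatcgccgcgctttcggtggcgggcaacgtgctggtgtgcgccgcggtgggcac
ADORA2B intron site of all 3 factors at 9355 bp, chr17:15857749-15857849, plus strand: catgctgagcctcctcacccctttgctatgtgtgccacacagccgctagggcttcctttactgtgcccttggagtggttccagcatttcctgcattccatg
ADORA2B intron site of Fra-1 and E2F1 at 14156 bp, chr17:15862550-15862650, plus strand: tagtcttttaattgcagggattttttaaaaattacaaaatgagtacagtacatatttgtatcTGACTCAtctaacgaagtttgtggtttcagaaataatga

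The following sequences are the 5 Fra-1 sites of highest fold enrichment at the relatives of ADORA2B, and 2 sites with an E-box (CACGTG, the motif of MYC with MAX) in a MYC peak. Capitals again mark the motif, and the NT5E site at −46270 bp held none. The ADK stretch is shortened to the E-box and its surroundings, because the summit itself lies in an untranslated region.
NT5E intron site of Fra-1 and E2F1 at 14317 bp, chr6:86174068-86174168, plus strand: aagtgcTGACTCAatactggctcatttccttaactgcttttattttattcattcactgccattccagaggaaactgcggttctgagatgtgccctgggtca
ADA upstream site of Fra-1 and E2F1 at −41448 bp, chr20:43321738-43321838, plus strand: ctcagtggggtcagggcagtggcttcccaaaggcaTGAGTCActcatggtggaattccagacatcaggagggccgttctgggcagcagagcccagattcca
NT5E upstream site of Fra-1 and E2F1 at −46270 bp, chr6:86113481-86113581, plus strand: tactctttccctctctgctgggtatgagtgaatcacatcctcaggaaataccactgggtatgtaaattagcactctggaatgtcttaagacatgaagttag
ADA downstream Fra-1 site at 98599 bp, with 2 AP-1 motifs, chr20:43181691-43181791, plus strand: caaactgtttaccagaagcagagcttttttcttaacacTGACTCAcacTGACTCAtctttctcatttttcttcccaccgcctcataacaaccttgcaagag
ADORA1 downstream Fra-1 site at 49967 bp, chr1:203146771-203146871, plus strand: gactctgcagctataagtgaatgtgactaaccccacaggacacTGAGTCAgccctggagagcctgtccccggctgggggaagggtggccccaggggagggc
ADA downstream site of all 3 factors at 74674 bp, chr20:43205616-43205716, plus strand: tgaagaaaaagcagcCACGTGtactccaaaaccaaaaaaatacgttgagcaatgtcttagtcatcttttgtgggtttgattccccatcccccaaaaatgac
ADK first intron E-box, chr10:75911148-75911177, plus strand: agccagggccCACGTGgggttgcacggccc

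The 8 genes and their surroundings held 24 Fra-1 peaks, 6 MYC peaks and 42 E2F1 peaks. ADORA2B had the most peaks of any of them, 21, followed by NT5E with 19 and ADA with 11. The lead of ADORA2B over NT5E rests on peaks in promoter windows of TTC19 and ZSWIM7, in its downstream flank. No NT5E peak lay in a promoter window of another gene. ADK had 7, ADORA3 had 5, ENTPD1 had 4, ADORA2A had 3 and ADORA1 had 2. Every one of the 8 genes had a Fra-1 peak somewhere in its neighbourhood, whereas 44.2% of all protein-coding genes had none. In lists of equal length, each with 4857 peaks, 4 of the 8 (ADORA1, ADORA2A, ADORA3 and ENTPD1) had no Fra-1 peak, against 75.7% of all genes. At that length the order of the factors turned, with 11 Fra-1 and 6 E2F1 peaks at the members. MYC peaks lay near ADORA2B, ADA and ADK, and the other 5 genes had none. E2F1 peaks lay near all genes except ADORA2A.

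**Figure D1:**
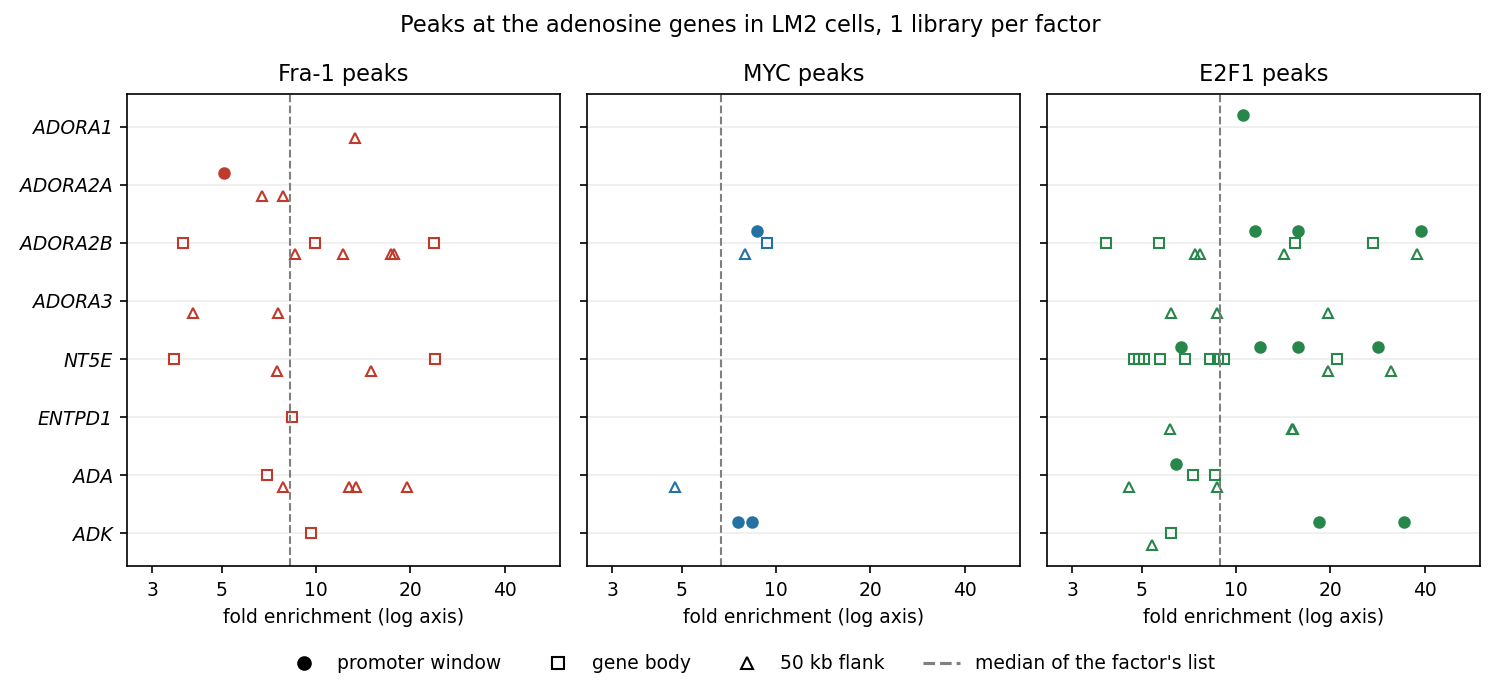
Fold enrichment (log axis) of every Fra-1, MYC and E2F1 peak at the 8 genes, with 1 row per gene. Filled circles are promoter windows, open squares gene bodies and open triangles 50 kb flanks, and the dashed line is the median of the factor's whole list. Fra-1 peaks lie mostly outside promoter windows, with 1 of 24 inside, and ADORA2B is the receptor with the most peaks of each factor.

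E2F1 peaks lay in a promoter window of 5 of the 8 genes, against 61.3% of all protein-coding genes, so that the share was near the background. MYC peaks lay in a promoter window of 2 of 8, against 17.8% of all genes. Fra-1 peaks lay in a promoter window of 1 of 8, against 13.2% of all genes. No member had promoter peaks of all 3 factors, which 4.67% of all genes had. Members with a Fra-1 peak in the gene body numbered 5 of 8, against 17.3% of all genes, and those with an E2F1 peak there 4 of 8, against 17.8%. For MYC this was 1 of 8, ADORA2B, against 2.44% of all genes. In the flanks, 6 of 8 members had a Fra-1 peak (44.2% of all genes), 2 of 8 a MYC peak (28.7%) and 6 of 8 an E2F1 peak (68.7%). Gene length was not matched in these counts: the members ranged from 4.21 kb for ADORA3 to 559 kb for ADK, with a median of 27.3 kb over all genes.

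ADORA2B, on chromosome 17 from 15848444 to 15879060 on the plus strand, had peaks of all 3 factors, but no Fra-1 peak was called in its promoter window. E2F1 was strongest within the first exon, and MYC lay in the same exon. Fra-1 peaks stood upstream of the promoter and in the intron, with the strongest at an intronic site that the 3 factors shared. The paper states that its final gene set, which includes ADORA2B, showed coordinated promoter binding of its factors, Fra-1 among them. It used a promoter window and q-value cutoff of the same size. In the Fra-1 list and annotation read here, the nearest Fra-1 summit lay at −3193 bp, outside that window. The cause of this difference was not tested.

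In the promoter window of ADORA2B, E2F1 had 3 peaks. The main one had its summit 234 bp downstream of the TSS, in the coding part of exon 1, with a pileup of 57 and a fold enrichment of 38.9 (29.6 to 50.2). It was 1366 bp wide and stood at percentile 95.8 of the E2F1 list. The smaller ones, at −221 bp and 2317 bp, had fold enrichments of 15.8 (10.3 to 23.4) and 11.5 (7.16 to 17.7). The main E2F1 peak thus lay above both of its neighbours beyond counting error. MYC had 1 promoter peak, with its summit at 169 bp in the same coding exon, 65 bp from the E2F1 summit. Its pileup was 11 and its fold enrichment 8.67 (4.69 to 14.9), at percentile 79.9 of the MYC list. The exon sequence shown above held neither an E-box nor an AP-1 or E2F motif, which says no more than that these letters are not in that window.

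Fra-1 came nearest to the ADORA2B TSS at −3193 bp, beyond the 2 kb edge of the promoter window. There its fold enrichment was 17.4 (11.4 to 25.5) on a pileup of 24, and an E2F1 peak of 14.2 (8.85 to 21.8) had its summit 25 bp away. The AP-1 motif of that site was centred 35 bp from the Fra-1 summit and 10 bp from the E2F1 summit. Further upstream, at −24240 bp, Fra-1 had its highest pileup in the ADORA2B flanks, 69, with a fold enrichment of 17.7 (13.8 to 22.4). The E2F1 peak 16 bp away was lower, at 7.4 (5 to 10.6), and the intervals of the peaks did not overlap. An AP-1 motif was centred 4 bp from the Fra-1 summit. A Fra-1 peak at −30206 bp, with a fold enrichment of 12.2 (7.29 to 19.4) and an AP-1 motif 21 bp away, had no overlapping peak of MYC or E2F1.

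In the intron of ADORA2B, peaks of all 3 factors overlapped about the summit at 9355 bp. Fra-1 had a fold enrichment of 23.8 (17.6 to 31.6) on a pileup of 46, which put it at percentile 97.6 of its list. E2F1, 6 bp away, had 15.4 (10.5 to 21.9), and MYC, 39 bp from the Fra-1 summit, had 9.39 (5.51 to 15.1). This intronic MYC peak was the sole MYC peak in a gene body among the 8 genes, and its value was within counting error of the one in the exon. Neither AP-1, nor E-box, nor E2F motif lay within 50 bp of any of the 3 summits.

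A second intronic site at 14156 bp had a higher Fra-1 pileup, 68, but a lower fold enrichment, 9.89 (7.71 to 12.5). The local background implied by the deposited values was 5.98 there, against 0.975 at the site at 9355 bp, so that the order of the sites depends on whether pileup or fold enrichment is read. E2F1 was near the bottom of its list at this site, with 3.84 (2.47 to 5.73) and percentile 2.91. The surrounding sequence was rich in A and T, with a GC content of 27.7%, and held the AP-1 motif shown. Another intronic Fra-1 peak, at 18666 bp, had a fold enrichment of 3.77 (2.4 to 5.67) over a background of 4.83. E2F1 without Fra-1 was found at 21830 bp, with 27.4 (20.5 to 35.8), and at 21334 bp, with 5.7 (3.4 to 9.04).

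The other stretch near ADORA2B at which all 3 factors overlapped belonged to different genes. It lay 54649 bp from the TSS, at the start sites of TTC19, which encodes a mitochondrial protein of respiratory complex III assembly, and of ZSWIM7, which encodes a protein of homologous recombination. Fra-1 had 8.59 (4.76 to 14.5) there, MYC 7.98 (4.21 to 14.1) and E2F1 37.8 (29.1 to 48.3). A further E2F1 peak of 7.65 (4.41 to 12.5) lay at 55410 bp in the same promoter windows.

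**Figure D2:**
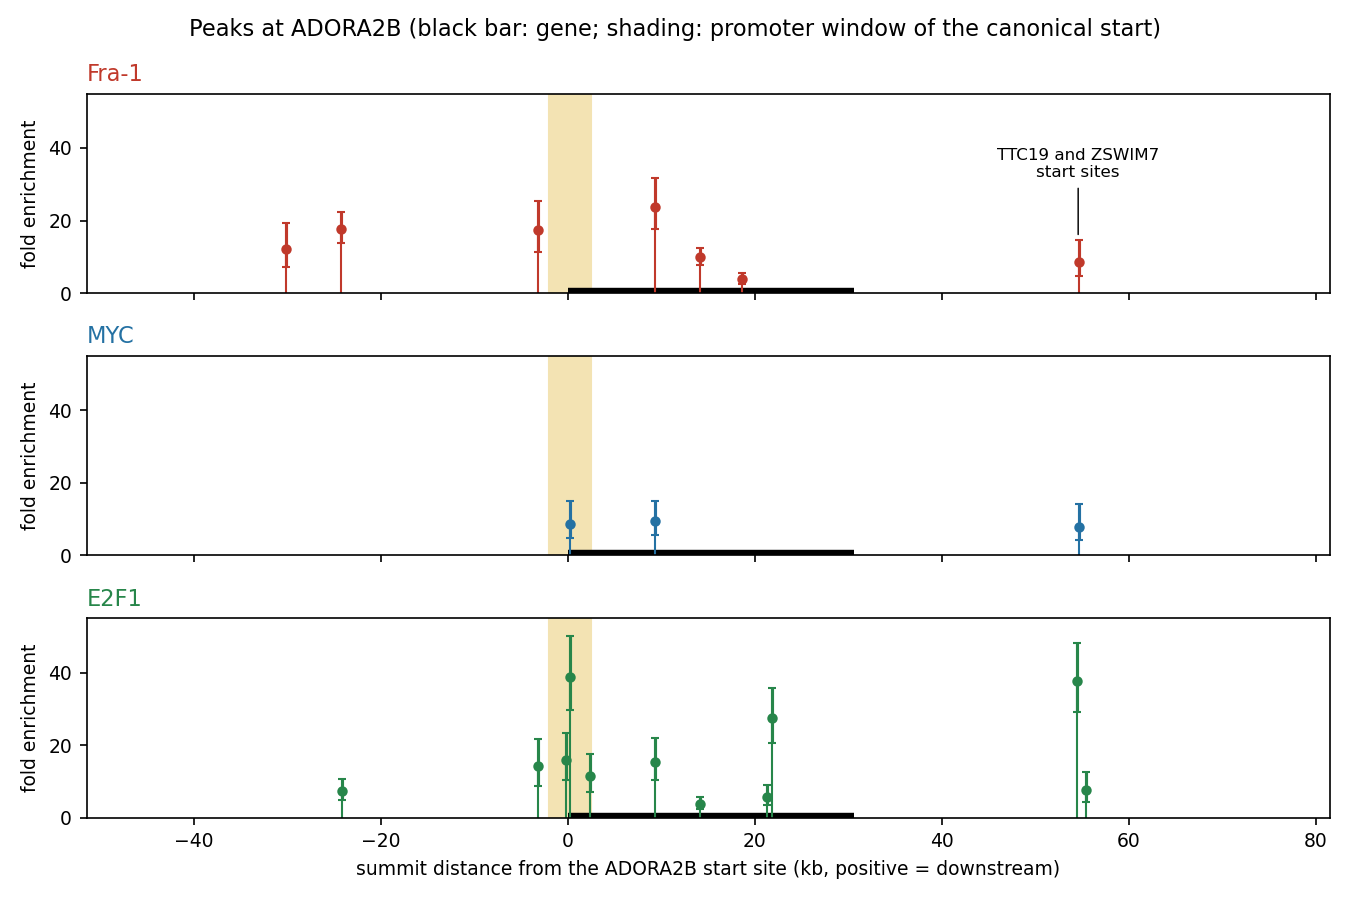
Fold enrichment (points, with exact 95% Poisson intervals on the pileup) of the Fra-1, MYC and E2F1 peaks against the distance of their summits from the ADORA2B TSS in kb. The black bar is the gene and the shading is the promoter window of the canonical TSS. MYC and E2F1 but not Fra-1 have peaks in the shaded window, and all 3 factors have one in the intron at 9355 bp and at the start sites of TTC19 and ZSWIM7.

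Relative to the length of gene and flanks, ADORA2B had 5.36 Fra-1 peaks per 100 kb, above 99.1% of protein-coding genes. The MYC value was 2.3 per 100 kb (percentile 90.7) and the E2F1 value 8.42 (percentile 88.6), whereas the median gene had 0.539 Fra-1, 0 MYC and 2.24 E2F1 peaks per 100 kb. In lists of equal length ADORA2B had 3.06 Fra-1, 2.3 MYC and 2.3 E2F1 peaks per 100 kb, so that its higher E2F1 density rested on the longer E2F1 list. Stretches in which all 3 factors overlapped numbered 2 for ADORA2B and 1 for ADA. At least 1 such stretch was found for 2 of 8 members and 11.7% of all genes, and at least 2 for 1 of 8 members, ADORA2B, and 2.51% of all genes. Of the ADORA2B stretches, only the intronic site lay in the gene itself, and the other lay at the start sites of TTC19 and ZSWIM7. The peak densities of ADORA2B also include the peaks at those start sites.

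Among the other receptors, ADORA1, on chromosome 1 from 203059782 to 203136533, encodes the inhibitory A1 receptor. It had 1 E2F1 peak at 554 bp, in an untranslated exon that an antisense RNA gene overlaps, with a fold enrichment of 10.5 (6.08 to 17.2) on a pileup of 14. Its one Fra-1 peak, at 49967 bp in the downstream flank, had 13.3 (8.2 to 20.7) and an AP-1 motif 4 bp from the summit. That peak lay in promoter windows of CHI3L1, which encodes a secreted chitinase-like protein, and of MYBPH, which encodes a myosin-binding protein. The nearest MYC summit was at −89403 bp, outside the window.

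ADORA2A, on chromosome 22 from 24813847 to 24838325, encodes the stimulatory A2a receptor, the nearest relative of A2b in signaling. It was the only member with a Fra-1 promoter peak and the only one without an E2F1 peak. The Fra-1 peak lay 6747 bp from the canonical TSS and 1506 bp downstream of an alternative one, with a pileup of 9 and a fold enrichment of 5.08 (2.6 to 9.18), at percentile 10.6 of its list. Both this gene and the SPECC1L-ADORA2A readthrough gene cover it, so that it cannot be given to either. The flank peaks of Fra-1 had 6.71 (4.17 to 10.3) at −24850 bp, within SPECC1L, and 7.82 (5.03 to 11.7) at 46883 bp. None of the 3 had an AP-1 motif within 50 bp, but those at 6747 bp and 46883 bp had one within 100 bp. Compared with ADORA2B, ADORA2A thus had a Fra-1 promoter peak, at the lower end of the list, and no peak of E2F1 or MYC. The nearest E2F1 summit was at 126919 bp and the nearest MYC summit at 128431 bp.

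ADORA3, on chromosome 1 from 112042051 to 112046255 on the minus strand, encodes the A3 receptor and is the shortest of the 8 genes. It had no peak in a promoter window or in its body. Upstream, within an intron of TMIGD3, a gene that overlaps this locus, Fra-1 had 7.57 (4.37 to 12.4) at −3812 bp and E2F1 had 8.67 (5.73 to 12.6) at −4659 bp. These peaks overlapped, but their summits were 847 bp apart. A pair at −38369 bp, in a promoter window of RAP1A, which encodes a small GTPase, had 4.05 (2.63 to 5.99) for Fra-1 and 6.22 (4.41 to 8.55) for E2F1 with summits 14 bp apart. At the start sites of ATP5PB, a subunit gene of ATP synthase, and WDR77, a gene of the PRMT5 complex, E2F1 had 19.6 (14.9 to 25.3) and overlapped a MYC peak that lay just beyond the flank, with its summit at 54312 bp. The strongest peak in the ADORA3 flanks was thus at the start of other genes.

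NT5E, which encodes CD73, lies on chromosome 6 from 86159302 to 86205509 and had 15 E2F1 peaks, the most of the group in the full list. In the promoter window were 4 of them, 9 were in the gene body and 2 in the upstream flank. The strongest promoter peak, at −547 bp and 1760 bp wide, had a pileup of 84 and a fold enrichment of 28.5 (22.8 to 35.2). The 3 others were lower, with 15.8 (10.6 to 22.8) at 1684 bp, 11.9 (8.31 to 16.4) at −1159 bp and 6.68 (3.7 to 11.3) at −1868 bp. Its density of 10.3 E2F1 peaks per 100 kb stood at percentile 92.5 of all genes. The 42 E2F1 peaks of the group fell to 27 when peaks within 1 kb were merged. Every E2F1 peak of NT5E except that at 33170 bp lay within 1 kb of another. Its first place and its density thus come largely from neighbouring peaks of broad stretches. After merging, NT5E held fewer E2F1 stretches than ADORA2B. In lists of equal length NT5E had 2 E2F1 peaks (1.37 per 100 kb) and ADORA2B 3 (2.3 per 100 kb), which turned their order. Of these 3 ADORA2B peaks, that of highest −log10 q, 94.2, lay at the start sites of TTC19 and ZSWIM7. Without it the counts of the genes would be equal.

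Fra-1 had 4 peaks at NT5E, of which the strongest was in the intron at 14317 bp. Its fold enrichment was 23.9 (18.7 to 30.1) on a pileup of 70, the highest Fra-1 value of the 8 genes and close to the 23.8 at the ADORA2B intron. E2F1 had 21 (16.1 to 26.9) there, with the summit 3 bp away. An AP-1 motif was centred 41 bp from the Fra-1 summit. About 45 kb upstream of the gene, Fra-1 and E2F1 shared a pair of sites. At −46270 bp, Fra-1 had 15 (10.4 to 21.1) and E2F1 31.2 (24.3 to 39.5). At −45115 bp, Fra-1 had 7.53 (5.13 to 10.7), with an AP-1 motif 11 bp away, and E2F1 had 19.6 (14.9 to 25.3). At both sites the E2F1 interval lay above that of Fra-1, the reverse of the ADORA2B site at −24240 bp, although the factors' scales are only roughly alike. MYC had no peak at NT5E, and its nearest summit was at 192451 bp. NT5E and ADORA2B thus both had strong E2F1 promoter peaks and a strong intronic Fra-1 and E2F1 site, and they differed in MYC.

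ENTPD1, which encodes CD39, lies on chromosome 10 from 97471536 to 97637023. It had no promoter peak of any factor. A Fra-1 peak in an intron, at 62683 bp, had 8.4 (4.93 to 13.5) on a pileup of 15 with no AP-1 motif within 50 bp. The peak held an AP-1 motif further than 100 bp from its summit. E2F1 peaks in the flanks all lay in promoter windows of other genes. They had 15.1 (11.6 to 19.5) and 6.16 (3.25 to 10.9) at TCTN3, a gene of the ciliary transition zone, and 15.2 (11.2 to 20.3) at CC2D2B. The ectonucleotidases thus stood apart in these libraries, with 19 peaks at NT5E and 4 at ENTPD1, although ENTPD1 has the longer neighbourhood, 265 kb against 146 kb.

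ADA, on chromosome 20 from 43213537 to 43280893 on the minus strand, had 11 peaks. Its promoter peak was weak, an E2F1 peak at −446 bp with a pileup of 8 and a fold enrichment of 6.43 (3.18 to 12). The peaks downstream of the promoter all lay in PKIG, which encodes an inhibitor of protein kinase A and overlaps the annotated end of ADA, so that they cannot be given to one gene. At 74674 bp all 3 factors had summits within 15 bp of each other. Fra-1 had 12.7 (9.48 to 16.7) there, MYC 4.76 (2.92 to 7.38) and E2F1 4.57 (2.77 to 7.16). This site held the E-box shown above and no AP-1 motif within 50 bp, and it was the single MYC summit of the group with an E-box so close. Its MYC value was at percentile 5.21 of the list, over a background of 2.99.

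Upstream of ADA, at −41448 bp, Fra-1 had 19.5 (14.8 to 25.1) on a pileup of 57 and E2F1 had 8.67 (5.73 to 12.6) with the same summit base. The AP-1 motif was centred 12 bp from it. The far downstream Fra-1 site at 98599 bp, whose sequence holds a pair of AP-1 motifs, had 13.4 (10 to 17.4). The other Fra-1 sites had 7.87 (5.95 to 10.2) at 78366 bp and 6.99 (4.35 to 10.7) at 55416 bp. E2F1 alone was found in the gene body at 53018 bp, with 8.59 (5.99 to 12), and at 41612 bp, with 7.28 (4.58 to 11.1). The stronger Fra-1 sites at ADA were thus all in the flanks.

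ADK, the longest of the 8 genes, lies on chromosome 10 from 75910960 to 76469721. It was the only member besides ADORA2B with MYC in a promoter window, and it had MYC and E2F1 together at each of its bound start regions. At the first, which it shares head to head with AP3M1, a gene of the AP-3 adaptor complex, MYC had 7.57 (4.19 to 12.8) and E2F1 18.4 (13.9 to 23.9). The E-box shown lay in this MYC peak, within 100 bp of the summit. At the alternative start at 25413 bp, MYC had 8.39 (4.93 to 13.5) and E2F1 34.4 (26.8 to 43.5). The E2F1 pileups of 54 (40.6 to 70.5) and 68 (52.8 to 86.2) overlapped, and the larger gap in fold enrichment came with implied backgrounds of 1.99 and 1.01. An intronic site at 73132 bp had Fra-1 at 9.61 (6.71 to 13.4) and E2F1 at 6.21 (4.03 to 9.19), with summits 2 bp apart and no AP-1 motif within 50 bp. A weak E2F1 peak at −32265 bp, with 5.41 (3.23 to 8.58), lay in VCL, the vinculin gene.

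**Figure D3:**
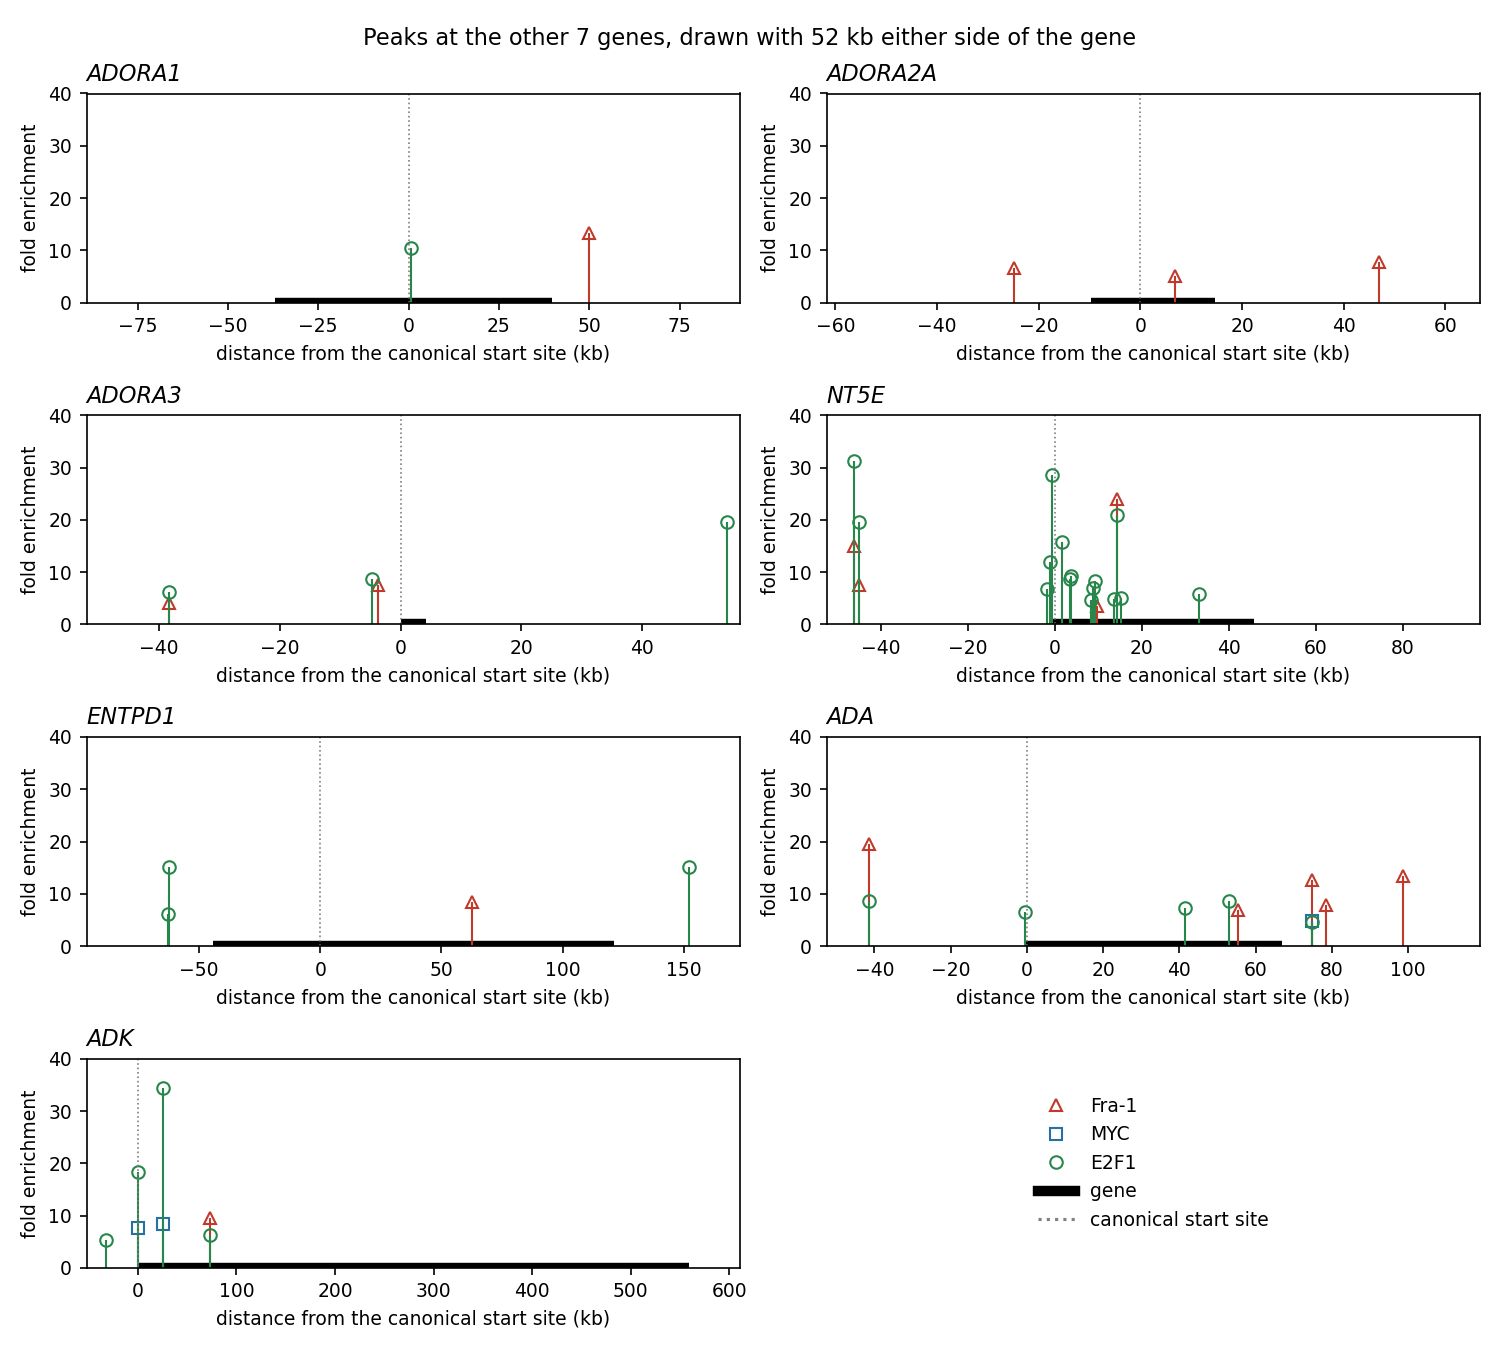
Fold enrichment of the peaks at the 7 genes other than ADORA2B against distance of the summit from the canonical TSS in kb, with a separate distance scale for each gene. Triangles are Fra-1, squares MYC and circles E2F1, and the black bar is the gene. NT5E carries E2F1 peaks throughout its first part, ADK carries MYC and E2F1 at 2 start regions, and ADORA3 and ENTPD1 have no peak at their own starts.

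By the strongest E2F1 promoter peak, the order was ADORA2B (38.9), ADK (34.4), NT5E (28.5), ADORA1 (10.5) and ADA (6.43). By pileup the first 3 stood in the opposite order, with 84 for NT5E, 68 for ADK and 57 for ADORA2B, so that their order depends on the local background. The intervals of ADORA2B, ADK and NT5E overlapped, as did those of ADORA1 and ADA, but the interval of NT5E lay above that of ADORA1. Among all genes with an E2F1 promoter peak, the median of the strongest peak was 22, and these genes stood at percentiles 85.7, 78.8, 66.8, 17.2 and 4.69. For MYC, ADORA2B stood at percentile 72.2 and ADK at 69.2, with a median of 7.22 over genes with a MYC promoter peak. The Fra-1 promoter peak of ADORA2A stood at percentile 7.81.

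**Figure D4:**
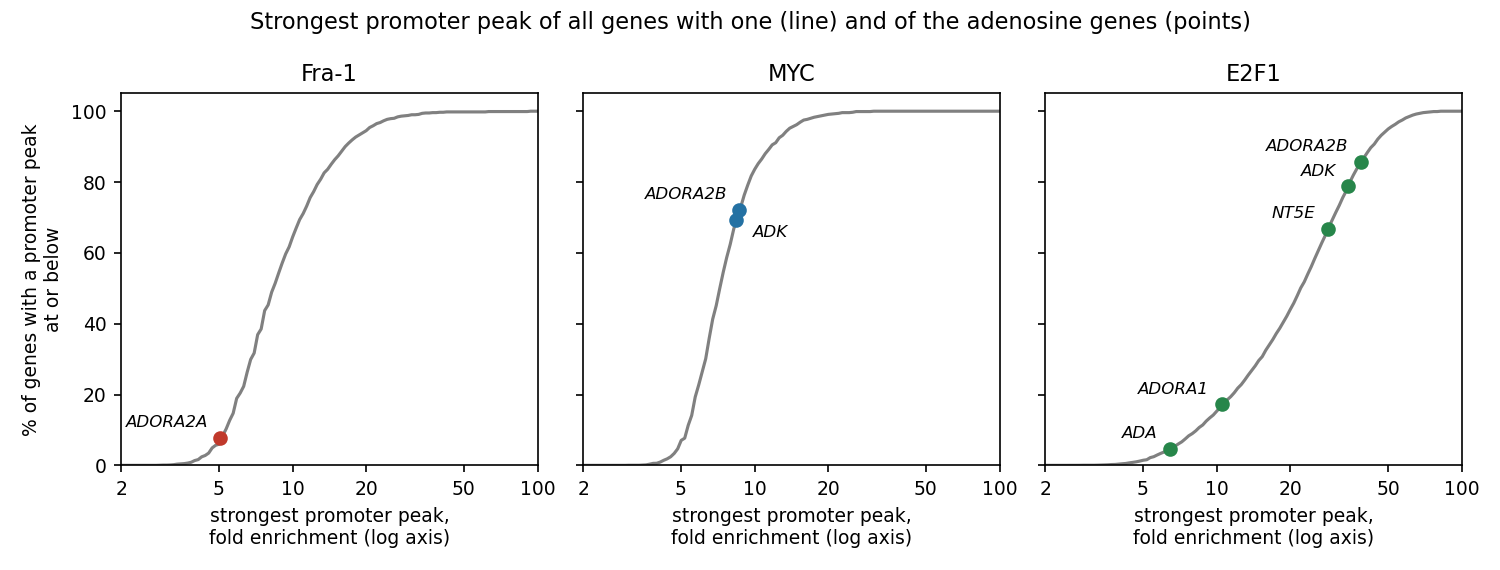
Cumulative share of protein-coding genes with a promoter peak (grey line) against the fold enrichment of the strongest promoter peak (log axis), with the adenosine genes as points, for each factor. ADORA2B, ADK and NT5E lie above the E2F1 median of 22, and ADORA1 and ADA lie below it.

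When the lists were brought to equal length, each with the 4857 peaks of highest −log10 q on these chromosomes, 3 of 8 members (ADORA2B, NT5E and ADK) kept an E2F1 promoter peak, against 25.6% of all genes. The MYC list set this length and was not cut, so that its count was the same by construction, 2 of 8 and 17.8% of genes. For Fra-1 it was 0 of 8, with 3.41% of genes.

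The peaks of the 8 genes formed 53 separate stretches, of which 3 held all 3 factors, 10 held Fra-1 and E2F1, and 3 held MYC and E2F1. E2F1 peaks alone made up 26 and Fra-1 peaks alone 11, and no MYC peak stood by itself. Only peaks within the flanks were counted here. The E2F1 stretch at ATP5PB and WDR77 near ADORA3 is thus among the 26, although it overlapped a MYC peak beyond the flank. Of the Fra-1 peaks, 13 of 24 overlapped E2F1 (54.2%, against 61.5% of all Fra-1 peaks) and 3 of 24 overlapped MYC (12.5%, against 5.9%). All 6 MYC peaks overlapped E2F1 (96.1% of all MYC peaks did), and 3 of 6 overlapped Fra-1 (21.4%). The shares with E2F1 were thus near those of the whole lists, and the shares between MYC and Fra-1 rest on 3 stretches.

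AP-1 motifs on either strand lay within 50 bp of 10 of 24 Fra-1 summits at these genes, 41.7%, against 53.3% of all Fra-1 summits and 1.71% of windows 5 kb to either side. The ADORA2B region held 4 of the 10, at −30206, −24240, −3193 and 14156 bp. Within 100 bp the motif lay at 13 of 24 Fra-1 summits, 54.2%, against 61.3% of all. At E2F1 summits the AP-1 motif was found at 5 of 42, 11.9%, against 12.2% of all E2F1 summits, and all 5 were within a stretch shared with Fra-1. An E-box lay within 50 bp of 1 of 6 MYC summits, 16.7%, against 16.8% of all. The E2F words searched, TTTCCCGC, TTTCGCGC, TTTGCCGC and TTTGGCGC, lay within 50 bp of 0 of 42 E2F1 summits, against 1.68% of all E2F1 summits and 0.127% of side windows.

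The binding pattern of ADORA2B was compared with that of 20097 genes by the strongest fold enrichment of each factor in each kind of window, which gave 9 values per gene as log2(fold enrichment + 1), with 0 for no peak. The Euclidean distance was smallest for RPS10-NUDT3 (1.47), a readthrough of a ribosomal protein gene, followed by ITPR3 (1.86), which encodes an IP3 receptor. RARA, the retinoic acid receptor alpha gene, was at 1.87, SUMF1, whose enzyme activates sulfatases, at 2.03 and the gene ENSG00000285043 at 2.18. Each of the 5 lacked Fra-1 in the promoter window and had the other 8 values filled, as ADORA2B did. The flank values of ADORA2B for MYC (7.98) and E2F1 (37.8) came from the start sites of TTC19 and ZSWIM7. Its MYC flank value would be 0 without them, so that the choice of these 5 genes depends on that stretch. The median distance over all genes was 9.80. Of the relatives, NT5E was nearest, at 5.71 and rank 388, followed by ADA at 6.13 and ADK at 7.18. ENTPD1, ADORA3, ADORA1 and ADORA2A were at 10.25, 10.36, 10.40 and 11.87, so that the 3 other receptors were farther from ADORA2B than the median gene. These distances depend on where no peak was called and carry no error.

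The wider purinergic system was read in 62 other genes. Fra-1 had a promoter peak at 15 of them (24.2%), MYC at 12 (19.4%) and E2F1 at 33 (53.2%), and 6 had promoter peaks of all 3 factors. These shares stand beside the 13.2%, 17.8% and 61.3% of all protein-coding genes for the single factors and the 4.67% for all 3. With the canonical TSS alone, 5 purinergic genes (8.06%) had a Fra-1 promoter peak, against 7.24% of all genes, and 1 had all 3 factors, against 2.8%. By group, Fra-1 promoter peaks were found at 5 of 9 ATP and ADP ectonucleotidases and related phosphatases and at 5 of 8 enzymes of adenosine, AMP and inosine. They were found at 4 of 16 G protein and adenylyl cyclase genes, 1 of 8 transporter and ATP release genes, 0 of 6 intracellular 5′-nucleotidases and 0 of 7 P2X receptors. Neither Fra-1 nor MYC had a promoter peak at any of 8 P2Y receptors.

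In the group of ectonucleotidases and related phosphatases, ENPP1, which makes AMP and pyrophosphate from ATP, had a Fra-1 promoter peak of 12, and ENTPD6 had 11.5. ENTPD8 (6.99), ENPP3 (5.08) and ENTPD5 (4.49) were lower, and ENTPD5 also had MYC at 6.7. Among the enzymes, AMPD3, an AMP deaminase, had the highest Fra-1 promoter value of the list, 21.7, with MYC at 6.7 and E2F1 at 42. AMPD2 (8.61 for Fra-1, 10.1 for MYC) and AHCY (8.4 and 8.17), whose enzyme releases adenosine from S-adenosylhomocysteine, also had both. DPP4, whose product CD26 anchors adenosine deaminase at the cell surface, had Fra-1 at 8.5 and no E2F1 promoter peak. PNP, the purine nucleoside phosphorylase gene, had Fra-1 at 6.12, and ADAL, which encodes an ADA-like deaminase, had MYC at 6.61 and E2F1 at 41.8. NT5C2, a cytosolic nucleotidase gene, had MYC at 6.33.

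The adenosine transporters SLC29A2 and SLC29A1 had the strongest MYC promoter peaks of the list, 14.2 and 11.6, both above the 8.67 of ADORA2B. Both lay within its interval of 4.69 to 14.9, which is approximate because the pileup was scaled. SLC28A2, a concentrative transporter gene, had Fra-1 at 4.66. The P2X receptor genes P2RX3 and P2RX5 had MYC at 6.98 and 5.81. Of the genes that carry the signal inside the cell, GNAI2, which encodes an inhibitory G protein subunit of the kind that A1 and A3 receptors use, had all 3 factors, with E2F1 at 46.2, MYC at 7.98 and Fra-1 at 7.05. ADCY7, an adenylyl cyclase gene, also had all 3, with Fra-1 at 11.6, MYC at 5.67 and E2F1 at 8.54. GNAL and GNAI1 had Fra-1 at 11.4 and 7.48.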

How the data were processed

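Peak lists from 3 ChIP-Seq libraries of LM2 cells (Fra-1, MYC, E2F1) were used. The authors used Trimmomatic 0.27 for trimming and Bowtie 0.12.5 for alignment to a masked hg19 genome, kept unique alignments, removed duplicates with Picard and called peaks per library with MACS2 2.0.10.20120913 at a q-value of 0.01 against 1 input library, without pooling. The signal deposited by the authors is the pileup at the summit, scaled by MACS2 between library and input and cut to a whole number. The deposited fold enrichment is the ratio of pileup to local background with 1 added to each. For significance, the deposited columns hold −log10 p and −log10 q. Tags after filtering ranged from 10758036 (input) to 23853621 (MYC), and the scaling is why intervals on pileups are approximate.

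Genes came from GENCODE 44 on GRCh37 (63827 genes, 219838 start sites). A peak was placed in a window from an overlap of 1 bp, in the order promoter, body, flank, and was counted once per gene. Each member's share stands beside that of all protein-coding genes. No test was made, because a group had 1 library. Members and gene lists were chosen with earlier results of these data known. Genes named are the 8 members, the 5 genes nearest to ADORA2B, the purinergic genes with a Fra-1 or MYC promoter peak and the 3 with the largest E2F1 value, and genes whose promoters hold a described peak. Motifs were searched on both strands. Alternatives were other start sites, windows, flanks, cutoffs, list lengths, overlap rules and motif windows. The procedures were tested on simulated data with planted peaks and motifs. Calculations ran in Python 3.11.15 with pandas 2.3.3, numpy 2.4.6 and scipy 1.17.1, and figures were drawn with matplotlib 3.10.9.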

Additional observations from a re-analysis of the deposited data

How the results depend on the processing

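No paired analysis was possible because each factor has 1 library, and leaving out a replicate was not possible for the same reason. Of 147 recomputed values, 113 stayed within 1.5 times the reported count (for the promoter peaks of ADORA2B, within the counting interval), and none of these counts has a sign that could reverse, but equal numbers of peaks turned several orders between factors and genes. The 113 include values that could not change. These were the MYC counts at equal numbers, because the MYC list set that length, and the strongest ADORA2B promoter peaks, which pass the cutoffs. The total is therefore no measure of stability. The single Fra-1 promoter member, ADORA2A, was lost (0) with the canonical TSS, with a window of 1 kb either side, with a −log10 q of at least 5 and with equal numbers of peaks. Among the other purinergic genes, the canonical TSS left 5 with a Fra-1 promoter peak and 1 with all 3 factors. Equal numbers of peaks shortened the Fra-1 and E2F1 lists, and E2F1 promoter members fell to 3. Purinergic promoters fell to 4 for Fra-1 (6.45%, against 3.41% of all genes), 6 for E2F1 (9.68%, against 25.6%) and 1 for all 3 factors. MYC, whose list was not cut, had the same 12 purinergic promoters (19.4%, against 17.8% of all genes), now above E2F1. Gene-body members fell to 3 for Fra-1 and 1 for E2F1, and flank members to 3 and 2. For body and flanks the shares of all genes at that length were not computed. Equal numbers also left 11 Fra-1 and 6 E2F1 peaks near the members, and 3.06 Fra-1 and 2.3 E2F1 peaks per 100 kb at ADORA2B. Stretches of at least 2 factors were then 6, with 0 of all 3. The MYC flank count was 1 with a fold enrichment of at least 5 and when peaks in other genes' promoters were left out, and 5 with flanks of 100 kb, which also gave 41 Fra-1 and 10 MYC peaks. With the promoter counted as gene body, MYC members were 2. Merging within 1 kb gave 27 E2F1 peaks. A reciprocal overlap of 50% gave 10 stretches of at least 2 factors and 1 of all 3. MYC summits with an E-box were 2 within 100 bp and 3 in the whole peak, and E2F1 summits with an E2F word 1 and 2. With promoter windows alone, 0 of the 5 genes nearest to ADORA2B were the same. The cause of these changes was not tested beyond what each setting removes by construction.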
